A study of Mus musculus with 2 samples.

Results

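The genes Mir142, Mir146, Mir146b, Mir150, Mir155, Mir223 and Mir511 make microRNAs (miRNAs) that are known from microglia, macrophages and other white blood cells. They were chosen by gene name, and all 7 were found among the 2202 miRNA genes counted. Small RNA was sequenced from tissue of female mice aged 36 days, labelled as a layer of hippocampus tissue and called hippocampus below. The strain was B6CASTF1/J, the F1 generation of a cross of C57BL/6J with CAST/EiJ. The labels name no treatment and no mutant allele. The 2 libraries, biological replicates 1 and 2, form 1 group, so no condition was compared. Both carry 1 donor entry and separate biosample entries. Whether they are separate animals is not given, so the spread between them may be technical.

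A miRNA guides the Argonaute protein to messenger RNAs that pair with its seed, bases 2 to 8 of the mature strand, and lowers their output. Microglia, the resident macrophages of the brain, and blood leukocytes share a set of such RNAs. miR-142 is found across blood cell lineages, miR-150 in mature lymphocytes and miR-223 in myeloid cells, above all neutrophils. miR-155 is induced when macrophages and lymphocytes are activated, and miR-146a is induced by NF-kappa-B and acts back on the signalling proteins TRAF6 and IRAK1. None of these RNAs is limited to immune cells, and miR-146a is also made by astrocytes and endothelium.

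All 7 genes had an entry in the RefSeq miRNA table (build GRCm38.p6), from which the mature strands below were taken. For Mir150 and Mir511 it held only the 3p strands, so miR-150-5p and miR-511-5p are named only. Their seeds are not shown, and the printed 3p seeds do not stand for them. The strands are shown because the seed decides which messengers a miRNA can pair with, and because the mature sequence decides whether a read can be given to 1 gene. Capitals mark the seed.
miR-150-3p: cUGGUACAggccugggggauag
miR-146a-5p: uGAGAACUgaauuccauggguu
miR-146b-5p: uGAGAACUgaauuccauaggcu
miR-142a-5p: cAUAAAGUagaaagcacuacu
miR-142a-3p: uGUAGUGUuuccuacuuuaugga
miR-142b: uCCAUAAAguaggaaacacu
miR-155-5p: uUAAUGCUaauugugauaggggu
miR-223-3p: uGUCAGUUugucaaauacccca
miR-511-3p: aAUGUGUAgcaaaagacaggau

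miR-146a-5p and miR-146b-5p were the only pair among the 7 genes' listed strands with a common seed. Of their 22 bases, 20 are identical, and counted from 1 at the 5′ end of miR-146a-5p the differences are G18A and U21C. Their hairpins share a stretch of 21 bases. The 2 mature strands are the same over their first 17 bases, so a read trimmed that short could not be given to either gene. In the sense direction, the hairpins of the other 5 genes share no stretch of 20 bases with any annotated miRNA gene. Mir142 does overlap Mir142b over 64 bases on the opposite strand. Apart from miR-146a-5p and miR-146b-5p, no other gene in the RefSeq table carries the seed of any strand printed here. The counts are per hairpin, so the 5p and 3p arms were not told apart.

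The genes lie on 6 chromosomes (assembly mm10), and their surroundings in the GENCODE M21 annotation differ. Mir142 (chr11:87756864-87756927, plus strand) is in an intron of the noncoding gene Mir142hg and lies within Mir142b on the opposite strand. Mir155 (chr16:84714140-84714204, plus strand) is in an exon of its noncoding precursor gene Mir155hg. Mir223 (chrX:96242817-96242926, plus strand) is in an exon of the noncoding gene F630028O10Rik. Mir146b (chr19:46342762-46342870, plus strand) is in an intron of Mfsd13a, and Mir511 (chr2:14261003-14261081, plus strand) in an intron of Mrc1, which encodes the macrophage mannose receptor. Mir146 (chr11:43374397-43374461, minus strand) and Mir150 (chr7:45121757-45121821, plus strand) overlap no other annotated gene.

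Values are sense reads per 1000000 sense reads on miRNA genes (CPM). Replicate 1 had 2928141 such reads and replicate 2 had 3644157, which were 30.5% and 34.7% of all reads in their tables. A single read equals 0.342 CPM in replicate 1 and 0.274 CPM in the deeper replicate 2, while the limit set for a count of 0 is 3 reads (one-sided, below the upper end of the two-sided intervals used elsewhere), 1.02 and 0.823 CPM. Intervals cover counting error only, since reads without molecular identifiers are not independent molecules. Detection required 10 or more reads in both libraries, a minimum that 4 of the 7 genes passed, against 376 of all 2202 (17.1%). That background holds 1479 genes with no read in either library. The 7 genes and the marker lists below were chosen with earlier results of these data known, so the contrast is no test. Adapter ligation differs between miRNAs, so levels of different genes are read levels and not molar amounts, and hairpin length does not enter because a read covers a whole mature strand.

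Together the 7 genes were a small part of the hippocampal miRNA reads. They held 4672 reads in replicate 1, or 0.160% of its assigned reads (exact Clopper-Pearson 95% interval 0.155% to 0.164%), and 6865 reads in replicate 2, or 0.188% (0.184% to 0.193%). The mean was 0.174% ± 0.0204 (SD, n = 2). Mir150 and Mir146 made up 93.3% of these reads in replicate 1 and 94.2% in replicate 2. Fewer cells of a type and less RNA per cell cannot be told apart in whole tissue, and counts per gene do not show which cells the reads came from.

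**Figure D1:**
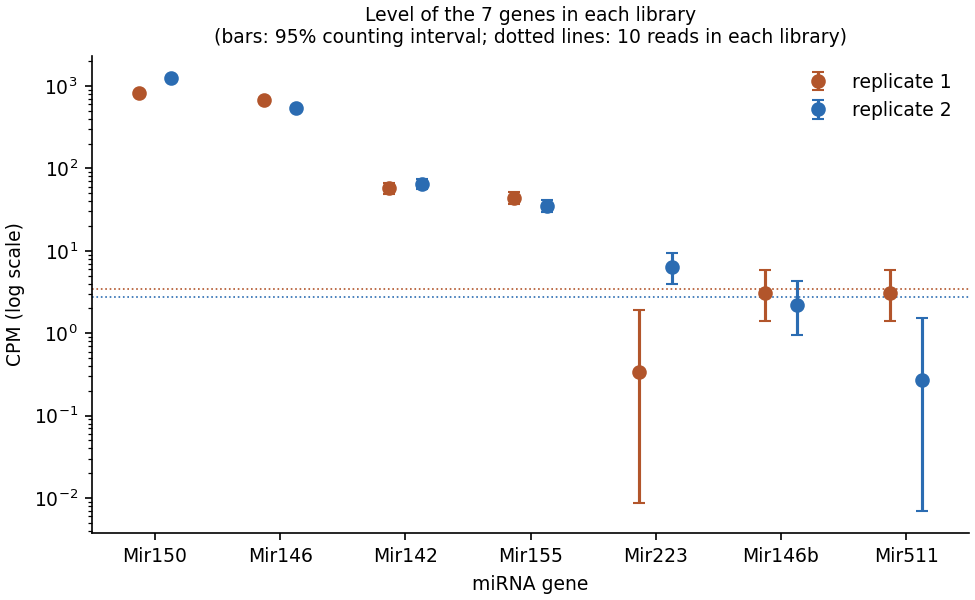
CPM on a log scale (vertical axis) of each of the 7 genes (horizontal axis) in replicate 1 and replicate 2, with exact Poisson 95% intervals as bars and dotted lines at the CPM of 10 reads. Mir150 and Mir146 stand at 545 CPM or more in both libraries, Mir142 and Mir155 between 35.1 and 64.8 CPM, and Mir223, Mir146b and Mir511 at 6.31 CPM or less.

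Mir150, whose 5p strand is known to repress the transcription factor Myb in lymphocytes, was the most abundant of the 7. It had 2384 reads in replicate 1 (814 CPM) and 4482 in replicate 2 (1230 CPM), and a mean of 1022 ± 294 CPM (SD, n = 2). It ranked 104 among all miRNA genes in replicate 1 and 86 in replicate 2. Mir150 was thus higher in replicate 2, with a ratio of replicate 1 to replicate 2 of 0.662 (exact 95% interval 0.630 to 0.696).

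Mir146, the gene of miR-146a, was the next and had nearly the same number of reads in both libraries. Its 1973 reads in replicate 1 were 674 CPM and its 1987 reads in replicate 2 were 545 CPM, a mean of 610 ± 90.9 CPM (SD, n = 2). The ratio of replicate 1 to replicate 2 was 1.24 (1.16 to 1.32), in the opposite direction to Mir150. Mir150 had 1.21 reads for each Mir146 read in replicate 1 (1.14 to 1.28) and 2.26 in replicate 2 (2.14 to 2.38). The order of both genes was the same in each library, but the gap between them was not.

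Mir146b, the relative with the same seed, was close to the counting limit. It had 9 reads in replicate 1 (3.07 CPM) and 8 in replicate 2 (2.20 CPM). Mir146 had 219 reads for each Mir146b read in replicate 1 (115 to 480) and 248 in replicate 2 (126 to 576). Of the reads given to this pair of genes, nearly all were thus on Mir146 in both libraries.

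Mir142, the miRNA gene shared by blood cell lineages, had the smallest absolute log2 ratio of the 7 (-0.17 for replicate 1 over replicate 2). It had 168 reads in replicate 1 (57.4 CPM) and 236 in replicate 2 (64.8 CPM), a mean of 61.1 ± 5.22 CPM (SD, n = 2), and ranked 220 in both. The ratio of replicate 1 to replicate 2 was 0.886, and its interval of 0.723 to 1.08 includes 1. These counts exist only because strand was used. Equal numbers, 168 and 236 reads, count as antisense at Mir142b, whose hairpin covers all 64 bases of Mir142, and without strand both genes had 0 reads. Mir142b itself had 0 sense reads in both libraries.

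Mir155 had 128 reads in each library, equal to 43.7 CPM in replicate 1 and to 35.1 CPM in replicate 2 (mean 39.4 ± 6.07 CPM, SD, n = 2). The ratio of replicate 1 to replicate 2 was 1.24, with an interval of 0.966 to 1.60 that includes 1. Mir155 and Mir146 stood in a like proportion in both libraries. There were 15.4 Mir146 reads for each Mir155 read in replicate 1 (12.9 to 18.6) and 15.5 in replicate 2 (13.0 to 18.7). Mir142 stood above Mir155 in both libraries, by 1.31 reads to 1 in replicate 1 (1.04 to 1.67) and 1.84 to 1 in replicate 2 (1.48 to 2.30).

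Mir223, known from neutrophils and monocytes, and Mir511, of the macrophage gene Mrc1, were near the limit of the depth and went opposite ways. Mir223 had 1 read in replicate 1 (0.342 CPM) and 23 reads in replicate 2 (6.31 CPM), a ratio of replicate 1 to replicate 2 of 0.0541 (0.00131 to 0.333). Mir511 had 9 reads in replicate 1 (3.07 CPM) and 1 in replicate 2 (0.274 CPM), a ratio of 11.2 with an interval of 1.55 to 491. With a single read in 1 library of each gene, the size of either difference is not fixed. The 3 genes below the detection minimum held 19 reads in replicate 1 and 32 in replicate 2.

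The order of the means was Mir150, Mir146, Mir142, Mir155, Mir223, Mir146b and Mir511. From Mir150 down to Mir223, each gene's lower library value was above the next gene's higher one. Mir223 and Mir146b overlapped, as did Mir146b and Mir511, so the last 3 have no order beyond the spread of the libraries.

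**Figure D2:**
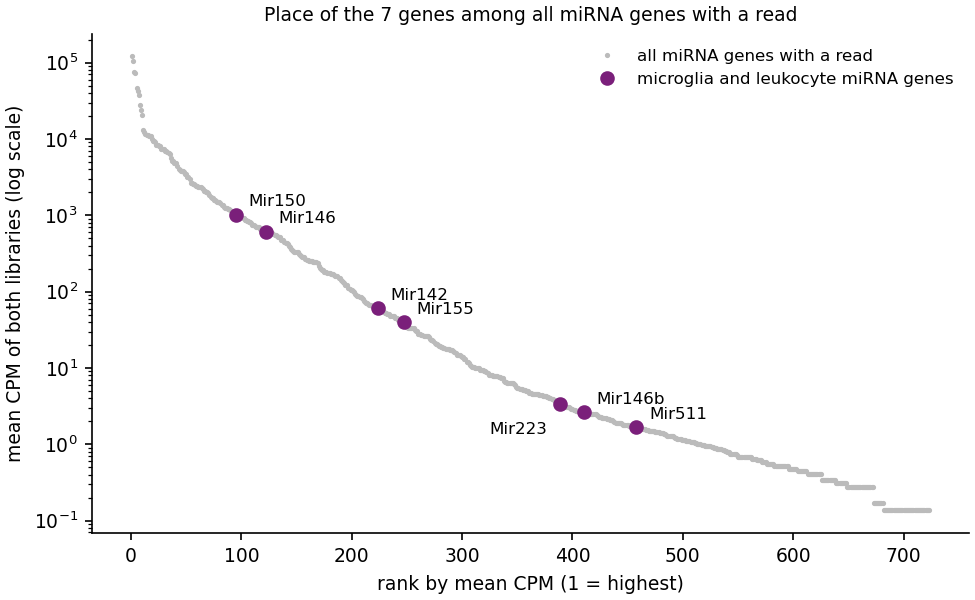
Mean CPM of both libraries on a log scale (vertical axis) against rank by mean CPM (horizontal axis) for the 723 miRNA genes with a read (grey) and the 7 genes (purple). Mir150 is at rank 95, Mir146 at 122, Mir142 at 224 and Mir155 at 247, while Mir223, Mir146b and Mir511 are at 389, 410 and 458 in the flat tail.

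Whether the libraries differed beyond counting error was tested for every gene with 10 or more reads in the sum of both. Its reads were split by library and set against the library totals (two-sided exact binomial test), with Benjamini-Hochberg adjustment over the 474 genes tested. All 7 genes were tested, Mir511 with a sum of exactly 10. The test sets 1 library against the other, not conditions, and knows counting error alone. It called 58.0% of all genes tested. Of the 7 genes, 4 were called, a share near that background. Mir146 (adjusted p = 1.2e-10, exact binomial test) and Mir511 (adjusted p = 0.014) were higher in replicate 1, in which 26.4% of all tested genes were called higher. Mir150 (adjusted p = 1.25e-60, exact binomial test) and Mir223 (adjusted p = 4.28e-05) were higher in replicate 2, against 31.6% of all tested genes. Mir142 (adjusted p = 0.329, exact binomial test), Mir155 (adjusted p = 0.135) and Mir146b (adjusted p = 0.701) did not pass.

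On the scale of log2(CPM + 1), the median log2 ratio of replicate 1 to replicate 2 was 0.30 over the 7 genes and -0.04 over all 474 tested. Set against the spread of all tested genes, 37.3% had a larger absolute log2 ratio than Mir150, 60.8% a larger one than Mir146 and 80.6% a larger one than Mir142. For Mir155 that share was 60.5%, for Mir146b 55.9%, for Mir223 1.48% and for Mir511 6.12%. Mir223 and Mir511 each had a single read in 1 library. The genes they were set against were not matched for read count.

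**Figure D3:**
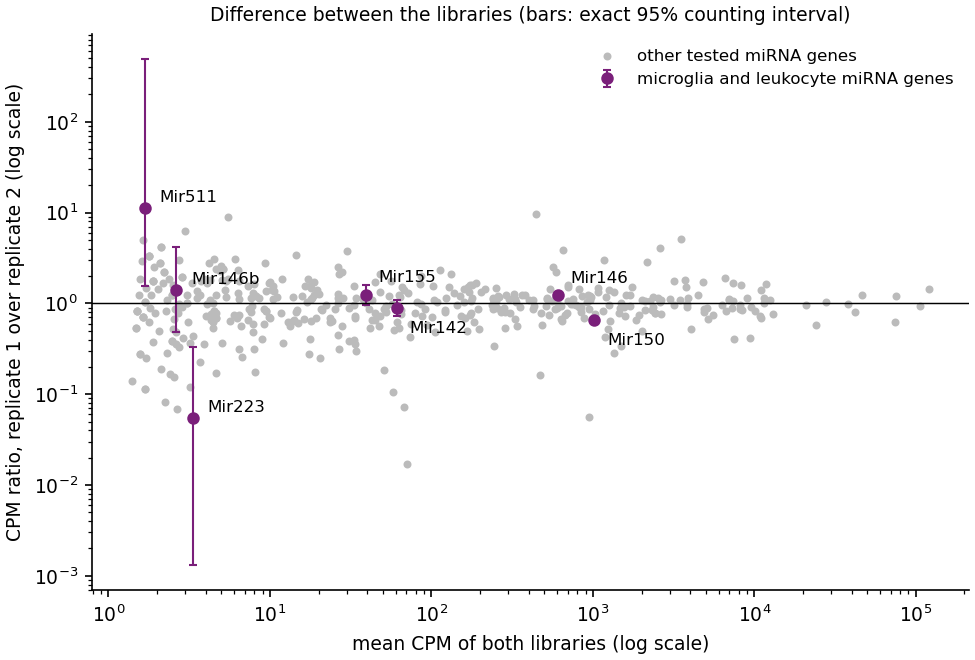
Ratio of CPM in replicate 1 over replicate 2 (vertical axis, log scale) against mean CPM (horizontal axis, log scale) for the 7 genes (purple, with exact 95% intervals) and 463 other tested miRNA genes (grey); another 4 with 0 reads in 1 library are not drawn. Mir150, at 0.662, and Mir146, at 1.24, lie on opposite sides of the line at 1, the intervals of Mir142, Mir155 and Mir146b cross it, and Mir223 and Mir511 have the widest intervals that do not.

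Genes known as markers of blood and of other brain cells were read beside these values. None of them is specific to a single cell type in counts per gene. All 3 genes of the erythroid list were detected and called higher in replicate 1. Of all genes, 17.1% were detected, and 26.4% of those tested were called higher in replicate 1. Mir451a, the miRNA of red blood cells, was at 1039 CPM in replicate 1 and 270 CPM in replicate 2, Mir144 at 115 and 57.6 CPM and Mir486, which shares sequence with another miRNA gene, at 22.2 and 12.1 CPM. The list summed to 1176 CPM in replicate 1 and 340 CPM in replicate 2, for a ratio of 3.46. The 7 genes summed to 1596 CPM in replicate 1 and 1884 CPM in replicate 2, for a ratio of 0.847. Of the 4 genes called, Mir150 and Mir223 were lower, and Mir146 and Mir511 higher, in the library with more red blood cell reads. For Mir223 and Mir511 this rests on a single read in 1 library. Mir142, Mir155 and Mir146b were not called, and the part of blood in these differences was not tested.

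The summed levels of the 4 other brain cell lists had ratios of replicate 1 to replicate 2 from 0.906 to 1.36. These sums hide larger differences of single genes. Of the astrocyte genes, Mir31, named after its values were seen, had a ratio of 9.70, and Mir29a, the most abundant, 1.15. Of the oligodendrocyte genes, Mir219a-2 had a ratio of 2.86 and Mir338 1.51, and Mir23a, the most abundant, 0.968. The 5 astrocyte genes, led by Mir29a, Mir22 and Mir21a, were all called higher in replicate 1. They summed to 16343 CPM in replicate 1 and 12013 CPM in replicate 2, of which Mir29a alone held 9631 and 8396 CPM. The 4 oligodendrocyte genes, led by Mir23a, Mir219a-2 and Mir338, summed to 13366 and 10814 CPM, of which Mir23a alone held 8014 and 8278 CPM. In this list 2 genes were called higher in replicate 1 and 1 gene lower there. Of these 4, 3 share sequence with another miRNA gene. The endothelial and mural genes Mir126a, Mir143 and Mir145a summed to 19436 and 15579 CPM, with 1 gene called higher in replicate 1 and 2 lower there. The 5 neuron genes, led by Mir132, Mir137 and Mir153, summed to 22163 and 24454 CPM, with 1 gene called higher in replicate 1 and 3 lower there. Across all tested genes, 26.4% were called higher in replicate 1 and 31.6% lower there, a split that depended on the scaling. With a mean count of at least 20, 347 genes were tested, of which 111 were called higher in replicate 1 and 133 lower there. Neither background was matched to the read counts of the listed genes. No gene of these 4 lists was at 0 in either library, and what they contribute to the differences of Mir146 and Mir150 was not tested.

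**Figure D4:**
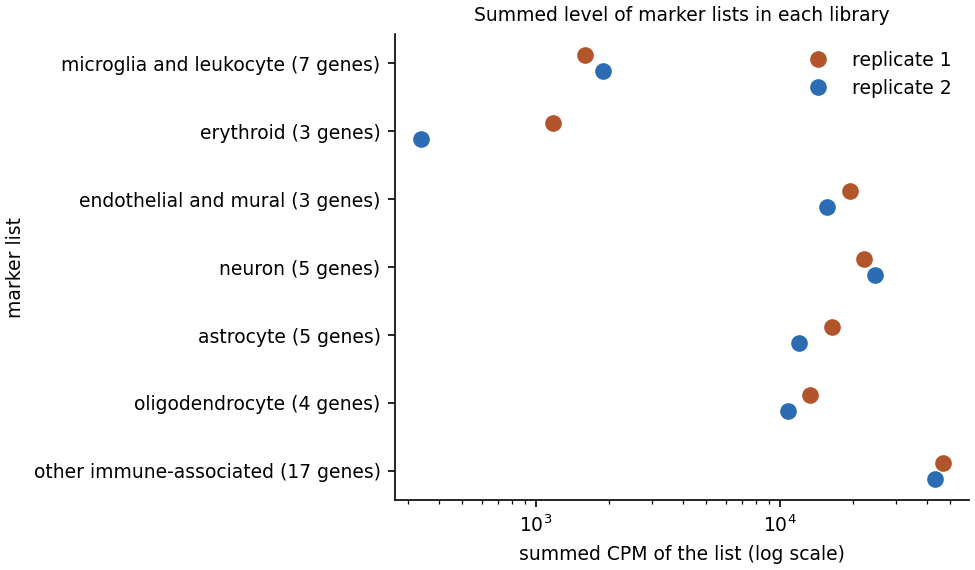
Summed CPM of each marker list (horizontal axis, log scale) in replicate 1 and replicate 2 (points), by list (vertical axis). The erythroid list, at 1176 CPM in replicate 1 and 340 CPM in replicate 2, is farther apart than the 7 microglia and leukocyte genes, at 1596 and 1884 CPM.

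A second list held 17 further miRNA genes with known roles in immune cells that are also expressed widely. Of these, 16 were detected and 14 called, 7 higher in replicate 1 and 7 higher in replicate 2, beside 17.1% of all genes detected and 58.0% of those tested called. The gene not detected, Mir19b-1 (0 and 2 reads), is named after its values were seen. Of the 17 genes, 8 share sequence with another miRNA gene. The most abundant were Mir132, Mir125a and Mir23a, at 11395 ± 1073, 8172 ± 804 and 8146 ± 186 CPM (SD, n = 2), and 3 of the 17 genes also stand on a brain cell list. Their summed level was 46520 CPM in replicate 1 and 43148 CPM in replicate 2, far above the 7 genes.

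Genes nearest in level were sought among the 1113 miRNA genes whose hairpins share no stretch of 20 bases with another in the sense direction. Distance was taken in log2(CPM + 1) over the 2 libraries, which is a description of level and nothing more. Mir222 (881 CPM in replicate 1 and 1168 CPM in replicate 2) and Mir431 were nearest to Mir150. Mir673 (655 and 534 CPM) and Mir3102 were nearest to Mir146, Mir148b and Mir25 to Mir142, and Mir3093 and Mir1188 to Mir155. The only other miRNA gene within 10000 bases of any of the 7 on the same chromosome, apart from Mir142b, was Mir5121 near Mir150 on the opposite strand, with 30 reads in replicate 1 and 48 in replicate 2.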

How the data were processed

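Total RNA of mouse hippocampus was made into small RNA libraries with a size range below 30, per the labels. In the deposited tables, counts are whole reads per miRNA gene, not normalized; assembly mm10 and annotation M21 are named in the deposited notes, with the aligner and counter not given in the sources used here. Each table's 3 unnamed columns were read as counts without strand, sense and antisense, sense being the stranded column with the larger total. Rows that name no gene, 69.5% of reads in replicate 1 and 65.3% in replicate 2, were left out, among them reads with several places in the genome (38.9% and 45.8%). Unmapped reads, also among them, were 26.8% in replicate 1 and 14.7% in replicate 2.

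All 2202 identifiers matched GENCODE M21. CPM used the sense totals, with a pseudocount of 1 CPM for log2 values. With 1 group of 2 libraries no count model of a condition could be fitted, so the reads of each gene were compared with an exact binomial test (threshold 0.05), which was tested on simulated data with counting noise alone. The libraries were no duplicate deposit (chi-square over genes 256 times its degrees of freedom). The text names the 7 genes, the 3 most abundant genes of each marker list and the 2 genes nearest in level to each detected member. miRNA genes opposite a member or within 10000 bases of it are also named. Mir19b-1 and Mir31 are named outside this rule. The members and lists were chosen with earlier results of these data known. Alternatives were TMM scaling (edgeR 4.0.16), DESeq2 1.42.0 size factors, other totals, filters and minimums, counts without strand, and either replicate alone. Software was R 4.3.3 and Python 3.11.15 with scipy 1.17.1, pandas 2.3.3, numpy 2.4.6 and matplotlib 3.10.9.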

Additional observations from a re-analysis of the deposited data

Results flagged for a closer look

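At Mir150, 4 antisense reads were counted in replicate 1, above the 3 that a count of 0 allows, and 0 in replicate 2, beside 2384 and 4482 sense reads. The other 6 genes had no antisense read in either library.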

How the results depend on the processing

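No paired analysis was possible because the series has 1 group. All 38 recomputed ratios of the 7 genes kept their direction and their side of the threshold, under TMM scaling, DESeq2 size factors, totals without the most abundant gene, counts without strand and both other filters, where the gene could still be tested. The number of the 7 genes called was 4, and 2 with a mean count of at least 20. Mir223, Mir511 and Mir146b were then not tested. Of all genes tested, 275 of 474 were called, against 244 of 347 with a mean count of at least 20. With no filter on low counts 263 of 723 were called, so the background share depends on the filter. Its split by direction depends on the scaling. In the main setting 125 genes were called higher in replicate 1 and 150 higher in replicate 2. These numbers were 133 and 135 under TMM scaling, and 142 and 126 with totals without the most abundant gene. The number detected was 4, also with a minimum of 20 reads, 5 with a minimum of 5 reads and 7 with a minimum of 1 read. Counts without strand gave 3. The share of reads held by the 7 genes, 0.174%, became 0.198% with totals without the most abundant gene, and 0.125% with genes of shared sequence left out, which removes Mir146 and Mir146b. Of 35 levels recomputed from both libraries, 32 moved by less than 1 SD. The 3 others were those of Mir142, at 0 CPM without strand, where it gave no ratio, 69.4 CPM without the most abundant gene and 67.5 CPM without genes of shared sequence. The smaller totals raised all 7 levels, Mir150 to 1157 CPM and Mir146 to 695 CPM without the most abundant gene, and Mir142 passed 1 SD there because its SD is small. With 2 libraries, leaving out 1 always moves a mean by under 1 SD, which shows no stability: Mir223 was then at 0.342 or 6.31 CPM and Mir511 at 0.274 or 3.07 CPM. Leaving out either replicate gave shares from 0.160% to 0.188% and 4 to 5 genes detected. Depth limits Mir223, Mir146b and Mir511, where 1 library or both held under 10 reads.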
